A study of Mus musculus with 26 samples.

Results

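The 10 transcription factor genes described here mark the surface ectoderm and the neural plate border, and were followed through all 10 groups of the series: Tfap2a, Tfap2b and Tfap2c of the AP-2 family, Gata2 and Gata3, Trp63, Grhl2 and Grhl3 of the Grainyhead family, and Msx1 and Msx2. They were chosen by name, as known regulators of these tissues, and are 10 of the 55291 gene symbols listed in each table of counts. The surface ectoderm is the embryonic sheet that becomes epidermis, and the neural plate border is the strip between it and the neural plate that gives rise to neural crest and placodes. BMP signaling favors surface ectoderm over neural fate, and AP-2, GATA and Msx factors are among the genes that respond to it. Grainyhead factors and p63, the protein of Trp63, then drive epithelial genes such as keratins, cadherins and claudins. Several of these factors also serve elsewhere: Gata2, Gata3 and Tfap2c act in trophoblast, and Tfap2c also in germ cells. In bulk RNA, fewer cells that express a factor and less RNA of it per cell cannot be told apart.

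RNA was sequenced from mouse ESCs and from NPCs made of them by 2 days of differentiation, to follow the role of RNA binding by CTCF, a DNA-binding protein that anchors chromatin loops. The CTCF rescue lines are E14 ESCs, descended from a single edited clone, in which endogenous CTCF carries an AID2 degron. A transgene that responds to doxycycline supplies either WT CTCF or CTCF without its first zinc finger (ΔZF1). The WT and the ΔZF1 rescue are different clones, so that mutation and clone cannot be told apart in any comparison of them. Both rescues were sequenced as ESCs (ESC-WT, ESC-ΔZF1) and as NPCs (NPC-WT, NPC-ΔZF1), with 2 libraries per group. All 4 groups, the WT rescue included, received 5-Ph-IAA (1 µM), which degrades the tagged CTCF, together with doxycycline (1 µg/ml) for 24 h. Unmodified E14 WT cells and the homozygous truncation lines Podxl pA and Grb10 pA, in which a polyadenylation signal after the first coding exon ends transcription of Podxl or Grb10, gave 3 libraries each as ESCs and as NPCs, without these agents. The truncation lines were grown from edited clones that also carry an inserted eGFP. Truncation, insertion and clone thus cannot be told apart in comparisons with E14 WT. The study calls the libraries of a group biological replicates, but the labels do not say whether they came from separate cultures, so that p-values measure the spread between these libraries.

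Libraries of the rescue lines hold 6425179 to 28730435 gene counts and those of the E14 and truncation lines 1907505 to 8845087, so that low genes were measured more coarsely in the latter. The labelled cell types were checked with their markers. All 6 pluripotency markers fell from ESC-WT to NPC-WT and from ESC E14 WT to NPC E14 WT. Among NPC markers, Sox1 rose in both, from a mean of 6.12 to 19.4 normalized CPM (reads scaled to the TMM-adjusted library size) in the WT rescue and from 4.70 to 79.0 in E14 WT. Pax6 stayed between 1.29 and 2.28 normalized CPM in NPC-WT, and Hes5 and Fabp7 were at 0 in both NPC-WT libraries. The 2 NPC-WT libraries had the largest chi-square per degree of freedom between replicates (63.1, and 1.69 for the closest replicates of the series). This measure grows with depth, so it does not rank the spread of groups of unlike depth. Replicates 1 and 2 of ESC E14 WT (27.6) and of ESC Grb10 pA (22.4) also stood apart. For the factors, calls that were lost without an NPC-WT library are given. The gene lists were not all given in this way.

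The promoters of 3 of the factors are shown because their genes moved the most, in both directions, between NPC-WT and NPC-ΔZF1. The 250 bases before the RefSeq start of each gene (GRCm38.p6, read 5′ to 3′ on the strand of the gene) lie at chr6:88193641-88193890 on the plus strand for Gata2, at chr4:135573633-135573882 on the minus strand for Grhl3 and at chr5:37824586-37824835 on the minus strand for Msx1, and none of them overlaps an exon annotated in GENCODE M21. Capitals mark a match to any motif searched, which here is CCAAT, a general promoter motif, on either strand.
Gata2: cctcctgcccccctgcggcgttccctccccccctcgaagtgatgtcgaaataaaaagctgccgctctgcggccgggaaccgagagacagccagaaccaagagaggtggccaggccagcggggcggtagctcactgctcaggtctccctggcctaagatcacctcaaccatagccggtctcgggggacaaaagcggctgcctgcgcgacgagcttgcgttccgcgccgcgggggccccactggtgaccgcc
Grhl3: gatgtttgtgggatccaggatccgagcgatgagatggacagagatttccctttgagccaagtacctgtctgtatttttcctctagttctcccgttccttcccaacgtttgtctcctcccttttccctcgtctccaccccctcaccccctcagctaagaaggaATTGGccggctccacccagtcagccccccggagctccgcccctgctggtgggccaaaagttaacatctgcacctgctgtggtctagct
Msx1: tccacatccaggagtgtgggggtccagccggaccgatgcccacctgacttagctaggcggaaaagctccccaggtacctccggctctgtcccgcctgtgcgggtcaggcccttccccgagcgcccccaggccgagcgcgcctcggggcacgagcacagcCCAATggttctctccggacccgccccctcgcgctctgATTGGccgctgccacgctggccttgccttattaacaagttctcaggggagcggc
RefSeq windows before a start were found for 7 of the 10 factors, with 2 starts each for Tfap2a and Gata2. Those of Gata3, Msx2 and the second start of Gata2 lie wholly within annotated exons (250 of 250 bases) and those of Tfap2a mostly (204 and 242 bases), so that matches in them lie in or beside transcribed sequence. The motifs searched on both strands were CCAAT, simple forms of the sites of the factors themselves (GCCNNNGGC for AP-2, AGATAA for GATA, AACNGGTT for Grainyhead and TAATTG for Msx) and the core of the CTCF site (CCNNNAG, then any 2 bases, then GGC). CCAAT occurred once before Grhl3 and Msx2 and 2 times before Msx1 and the second start of Gata2, and 33.8% of all 32851 windows hold it. The AP-2 form occurred 3 times before Gata3 and once before the second start of Gata2, against 13.7% of all windows with a match. The Msx form occurred once before Tfap2b and once before the second start of Tfap2a (7.17% of all windows). The CTCF form occurred once before the second start of Tfap2a and once before the second start of Gata2, and 7.17% of all windows hold it. The GATA and Grainyhead forms (9.99% and 1.79% of all windows) did not occur in these windows. No match overlapped a match to another motif.

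Levels were first compared between the factors, per kilobase of merged exon length (normalized CPM per kb). In NPC-WT, Gata2 (46.6 ± 6.5, mean ± SD, n = 2) and Tfap2c (45.7 ± 1.3) were the most abundant and did not differ beyond their spread. Grhl3 followed at 24.4 ± 2.2, Gata3 at 15.6 ± 0.33 and Msx2 at 14.7 ± 0.44. Grhl2 stood at 3.57 ± 0.081, ahead of Msx1 at 2.77 ± 0.63 and Tfap2a at 2.62 ± 0.19, which did not differ beyond their spread. Trp63, which marks stratified epithelia, was at 0.319 ± 0.21, and Tfap2b at 0.0536 ± 0.037. In ESC-WT the order began with Tfap2c (24.9 ± 0.82), Grhl3 (7.60 ± 0.77) and Gata2 (2.60 ± 0.45), and the other 7 factors were at 1.92 or less. Tfap2c and Grhl3 were also the most abundant in ESC E14 WT (17.9 ± 2.1 and 14.6 ± 2.5, n = 3), ahead of Msx2 at 2.46 ± 0.75 and Gata2 at 1.08 ± 0.37.

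**Figure D1:**
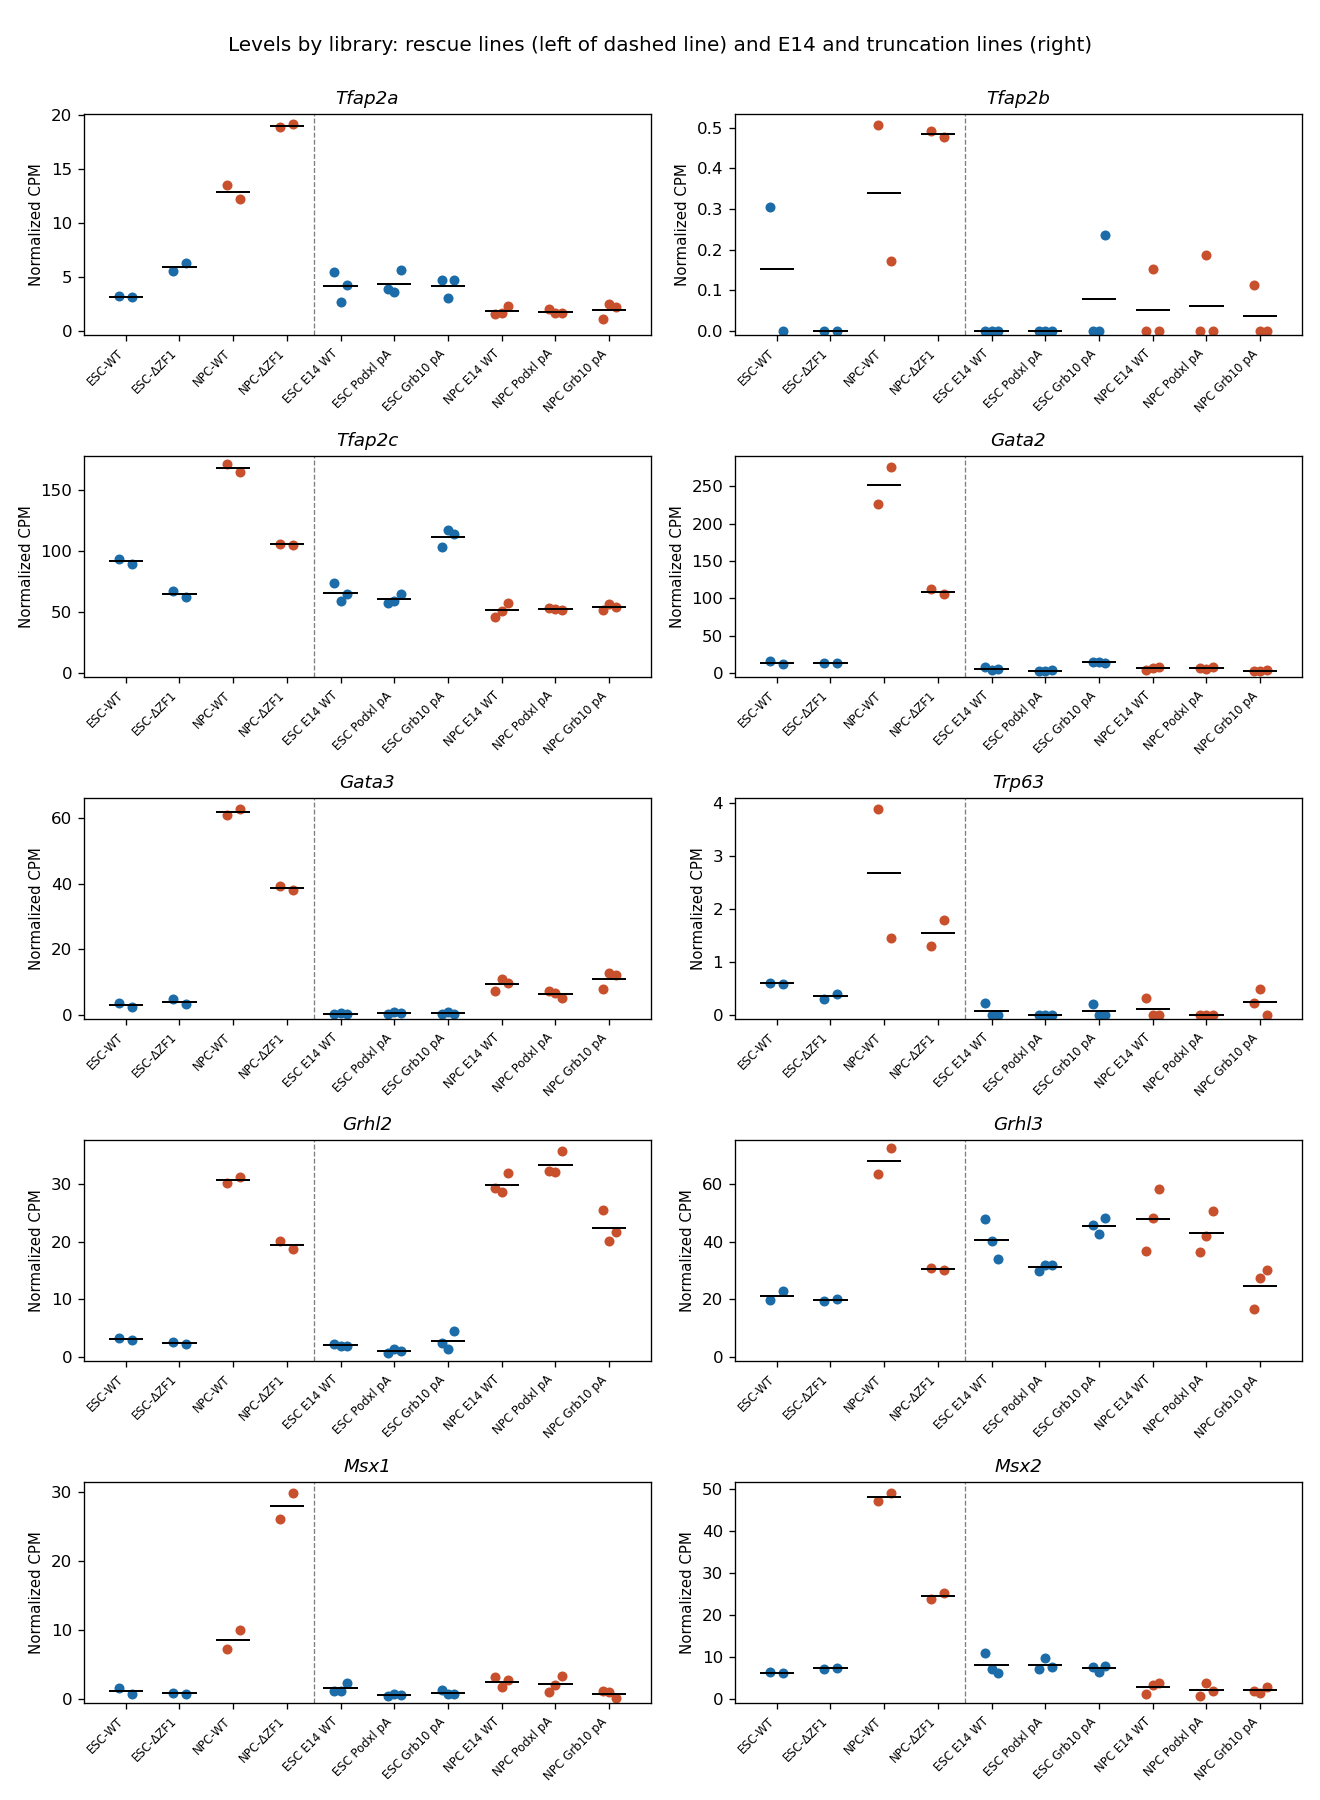
Normalized CPM (vertical axis, linear from 0) of each factor in every library of the 10 groups (horizontal axis), with ESCs in blue, NPCs in red and a black line at the mean of the group. Gata2 lies between 227 and 276 in NPC-WT, between 106 and 112 in NPC-ΔZF1 and at 15.7 or less elsewhere, whereas Grhl2 is near 30 in NPC-WT and in NPC E14 WT alike.

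The first comparison asks which factors changed between ESCs and NPCs of the WT rescue. Genes were taken as dysregulated at an adjusted p-value of at most 0.05 (edgeR's quasi-likelihood F test with Benjamini-Hochberg adjustment over all genes tested) and a change of 0.5 or more in either direction on the log2 scale. All 9 factors that passed the filter on low counts were higher in NPC-WT than in ESC-WT, in a comparison where 41.9% of all genes tested were dysregulated and 22% were higher. The median log2 fold change was 2.94 for the 9 factors and 0.01 for all genes. Tfap2b did not pass the filter, with 2 counts in all in ESC-WT and 14 in NPC-WT.

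Gata2 (chr6:88193891-88207032, plus strand, GRCm38), a regulator of blood, trophoblast and early ectoderm, rose from 15.7 and 12.3 normalized CPM in the ESC-WT libraries to 227 and 276 in the NPC-WT libraries. This is an 18.3-fold rise (log2 fold change 4.19 ± 0.16, estimate ± SE, adjusted p = 2.53e-07). Gata3 (chr2:9857078-9890034, minus strand), its paralog with roles in skin and trophoblast, rose from 3.66 and 2.54 to 61.0 and 62.9, which is 21.1-fold (4.40 ± 0.21, adjusted p = 5.57e-07). Both GATA factors thus left the range of the ESC libraries by a wide margin.

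Grhl2 (chr15:37233036-37363569, plus strand), which activates epithelial junction genes, rose from 3.36 and 2.93 to 30.2 and 31.2 normalized CPM, which is 9.94-fold (log2 fold change 3.31 ± 0.17, adjusted p = 7.30e-07). Grhl3 (chr4:135541888-135573630, minus strand), needed for the skin barrier and neural tube closure, rose from 19.7 and 22.7 to 63.6 and 72.3, which is 3.17-fold (1.67 ± 0.13, adjusted p = 6.40e-06). Msx2 (chr13:53466884-53473074, minus strand), a homeobox repressor induced by BMP, rose from 6.41 and 6.19 to 47.1 and 49.2, or 7.66-fold (2.94 ± 0.14, adjusted p = 5.84e-07). Its paralog Msx1 (chr5:37820485-37824583, minus strand), a marker of the neural plate border, rose from 1.53 and 0.716 to 7.19 and 9.95, or 8.54-fold (3.10 ± 0.33, adjusted p = 4.54e-05). In none of these 4 genes did the libraries of ESC-WT and NPC-WT overlap, but how many of all genes were likewise apart was not counted.

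Tfap2a (chr13:40715302-40738376, minus strand), an early factor of the border and the surface ectoderm, rose from 3.20 and 3.13 to 13.5 and 12.2 normalized CPM, which is 4.09-fold (log2 fold change 2.03 ± 0.18, adjusted p = 1.51e-05). Tfap2c (chr2:172549593-172558622, plus strand) rose from 93.9 and 89.6 to 172 and 165, or 1.84-fold (0.88 ± 0.10, adjusted p = 6.96e-05). Trp63 (chr16:25683763-25892102, plus strand) was at 0.610 and 0.586 in ESC-WT and at 3.89 and 1.46 in NPC-WT. The difference was 4.73-fold (2.24 ± 0.55, adjusted p = 0.00743), but the NPC-WT libraries of Trp63 differed widely, with 92 and 17 counts, and the call was lost without NPC-WT replicate 1 (adjusted p = 0.0834) or ESC-WT replicate 2 (adjusted p = 0.0903). Tfap2b (chr1:19208914-19238576, plus strand) was at 0.508 and 0.172 in NPC-WT and at 0.493 and 0.477 in NPC-ΔZF1. It had no count in ESC-ΔZF1, which allows up to 0.106 CPM over the group, counting error only.

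The next comparison asks how the ΔZF1 rescue differed from the WT rescue in NPCs. It uses the same 2 NPC-WT libraries as the first comparison, so that the 2 results are not independent, for the factors or for the gene lists below. Gata2 and Grhl3 were lower by more than 2-fold in NPC-ΔZF1 than in NPC-WT, Msx2, Gata3, Tfap2c and Grhl2 were lower to a lesser extent, and Msx1 and Tfap2a were higher. In all, 8 of the 9 factors tested were dysregulated, 2 higher and 6 lower, where 17.6% of all genes were dysregulated and 10.5% were lower. The median log2 fold change was -0.68 for the 9 factors and 0.00 for all genes.

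Gata2 fell from 227 and 276 normalized CPM in NPC-WT to 112 and 106 in NPC-ΔZF1, a level 2.31-fold lower (log2 fold change -1.21 ± 0.13, adjusted p = 0.000407). Gata3 fell from 61.0 and 62.9 to 39.2 and 38.1, 1.60-fold lower (-0.68 ± 0.15, adjusted p = 0.0122). Both were still well above every ESC-WT and ESC-ΔZF1 library. Other GATA genes went the opposite way: Gata4 and Gata6, endoderm factors, were higher in NPC-ΔZF1, as described with the gene lists.

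Grhl3 fell from 63.6 and 72.3 normalized CPM to 30.8 and 30.1, which is 2.23-fold lower (log2 fold change -1.15 ± 0.12, adjusted p = 0.000365). Grhl2 fell from 30.2 and 31.2 to 20.1 and 18.8, 1.58-fold lower (-0.66 ± 0.13, adjusted p = 0.00796). The libraries of each group lay close together and far from those of the other group. Trp63 was at 3.89 and 1.46 in NPC-WT and at 1.30 and 1.80 in NPC-ΔZF1, with overlapping libraries (log2 fold change -0.87 ± 0.41, adjusted p = 0.154).

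The paralogs Msx1 and Msx2 moved in opposite directions. Msx1 rose from 7.19 and 9.95 normalized CPM to 26.1 and 29.9, which is 3.32-fold (log2 fold change 1.73 ± 0.21, adjusted p = 0.000716). Msx2 fell from 47.1 and 49.2 to 23.9 and 25.2, 1.96-fold lower (-0.97 ± 0.12, adjusted p = 0.000735). Msx2 was above Msx1 by a wide margin in NPC-WT (14.7 against 2.77 CPM per kb), and in NPC-ΔZF1 Msx1 was at 9.05 ± 0.87 and Msx2 at 7.48 ± 0.29 CPM per kb.

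The AP-2 factors also split. Tfap2c fell from 172 and 165 normalized CPM to 106 in both NPC-ΔZF1 libraries, 1.59-fold lower (log2 fold change -0.67 ± 0.10, adjusted p = 0.00162). Tfap2a rose from 13.5 and 12.2 to 18.9 and 19.2, or 1.47-fold (0.56 ± 0.14, adjusted p = 0.0224). Tfap2a lay just inside the cutoff of 0.5 and was no longer dysregulated without NPC-WT replicate 2 (log2 fold change 0.48), without NPC-ΔZF1 replicate 1 (adjusted p = 0.158) or without NPC-ΔZF1 replicate 2 (adjusted p = 0.171). Gata3 and Grhl2 kept their size but missed the threshold without NPC-ΔZF1 replicate 1 (adjusted p = 0.104 and 0.0784) or replicate 2 (adjusted p = 0.130 and 0.120). The fit of only the NPC libraries left out Tfap2a (adjusted p = 0.0993) and Grhl2 (adjusted p = 0.0514). Gata2, Grhl3, Msx1, Msx2 and Tfap2c were dysregulated in the same direction under all 12 alternatives, the leave-one-out fits included.

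**Figure D2:**
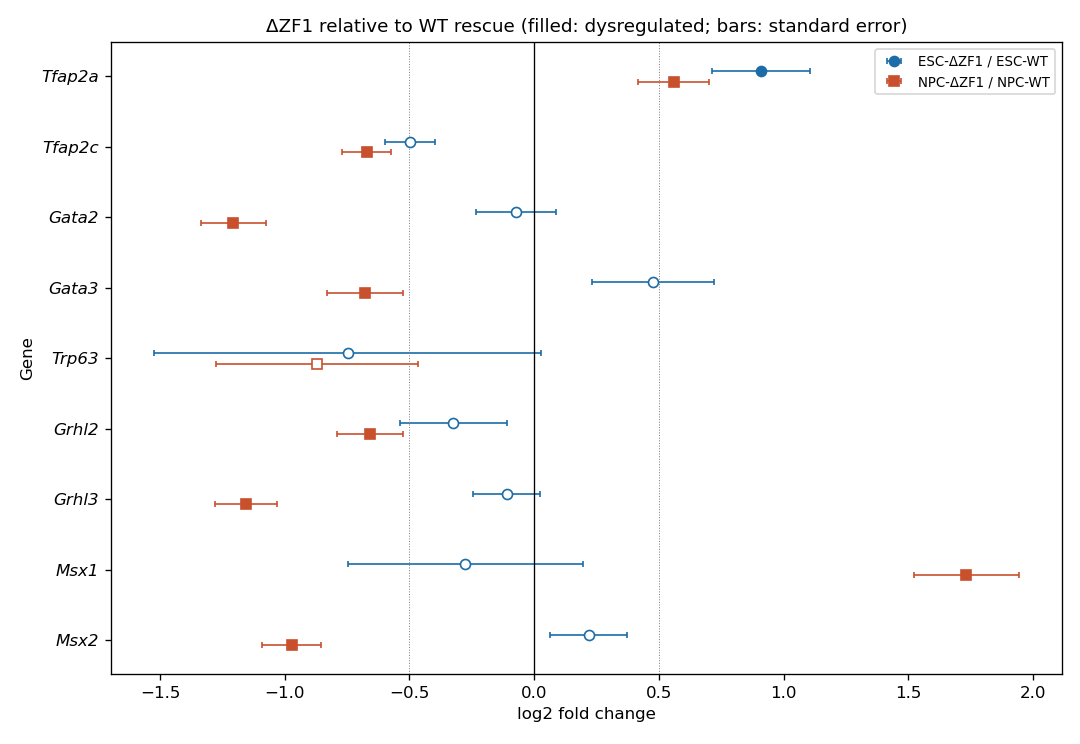
Log2 fold change (horizontal axis) of the 9 factors tested, in ESC-ΔZF1 relative to ESC-WT (blue circles) and in NPC-ΔZF1 relative to NPC-WT (red squares), with standard errors as bars and filled symbols for dysregulated genes. Dotted lines mark 0.5 in either direction. In NPCs, Gata2 (-1.21) and Grhl3 (-1.15) are at the low end and Msx1 (1.73) at the high end, and in ESCs only Tfap2a (0.91) is filled.

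The next comparison asks how the same lines differed in ESCs, which were grown in parallel to the NPCs. Of the 9 factors tested in ESC-ΔZF1 relative to ESC-WT, 1 was dysregulated, Tfap2a, where 3.61% of all genes were dysregulated and 1.29% were higher. Tfap2a rose from 3.20 and 3.13 normalized CPM to 5.57 and 6.27 (log2 fold change 0.91 ± 0.20, adjusted p = 0.0348). This call was lost when any one of the 4 ESC libraries was left out (adjusted p between 0.179 and 0.279), with the log2 fold change between 0.85 and 0.99, and without the genes of chromosome 11 (adjusted p = 0.0571). Tfap2c lay just outside the cutoff: it was at 93.9 and 89.6 in ESC-WT and at 67.4 and 62.5 in ESC-ΔZF1 (log2 fold change -0.497 ± 0.101, adjusted p = 0.0287). For Gata2, ESC-ΔZF1 (12.9 and 13.2) lay within the ESC-WT libraries (log2 fold change -0.07 ± 0.16, adjusted p = 0.891), and Grhl3 was at 19.5 and 20.1 against 19.7 and 22.7 (-0.11 ± 0.14, adjusted p = 0.758).

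A contrast of the 4 rescue groups tested whether the change with ΔZF1 was the same in NPCs and ESCs. The difference was past the cutoffs for 3 of the 9 factors, all more negative in NPCs, where 2.7% of all genes were past them and 1.11% were more negative. The difference was -1.19 ± 0.19 on the log2 scale for Msx2 (adjusted p = 0.0141), -1.04 ± 0.18 for Grhl3 (adjusted p = 0.0175) and -1.13 ± 0.21 for Gata2 (adjusted p = 0.0212). For Gata3 it was -1.16 ± 0.29 (adjusted p = 0.0708) and for Msx1 2.01 ± 0.53 (adjusted p = 0.0818), which did not pass. For Tfap2a (-0.35 ± 0.24) and Tfap2c (-0.18 ± 0.14) the effects in NPCs and ESCs were not told apart. None of the 3 calls was kept when any 1 of the ESC-WT, ESC-ΔZF1 or NPC-ΔZF1 libraries was left out. Over all 8 fits without 1 library, the difference lay between -1.31 and -0.965 for Gata2. It lay between -1.19 and -0.965 for Grhl3 and between -1.23 and -1.16 for Msx2.

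In NPC-ΔZF1 relative to ESC-ΔZF1, 9 of the 9 factors tested were higher, where 37.3% of all genes were dysregulated and 20.4% were higher. This comparison shares libraries with the 2 before it. Msx1 had the greatest rise, from 0.880 and 0.742 to 26.1 and 29.9 normalized CPM, 34.4-fold (log2 fold change 5.10 ± 0.29, adjusted p = 9.36e-07). Grhl3 had the smallest, from 19.5 and 20.1 to 30.8 and 30.1, 1.54-fold (0.62 ± 0.13, adjusted p = 0.00304). Trp63 was at 0.293 and 0.404 and then at 1.30 and 1.80 (2.12 ± 0.59, adjusted p = 0.0149), and its call was lost without ESC-ΔZF1 replicate 1 (adjusted p = 0.104), ESC-ΔZF1 replicate 2 (adjusted p = 0.0718) or NPC-ΔZF1 replicate 2 (adjusted p = 0.0711).

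The E14 and truncation lines were differentiated for 2 days as well, without degron, transgene or agents. Trp63 and Tfap2b did not pass the filter there, and of the other 8 factors 4 were dysregulated in NPC E14 WT relative to ESC E14 WT, 2 higher and 2 lower, where 32.8% of all genes were dysregulated. Gata3 and Grhl2 rose, Msx2 and Tfap2a fell, and Gata2, Grhl3, Msx1 and Tfap2c were not dysregulated.

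Grhl2 rose from 2.17, 1.88 and 1.93 normalized CPM in ESC E14 WT to 29.3, 28.6 and 31.9 in NPC E14 WT, which is 14.8-fold (log2 fold change 3.88 ± 0.23, adjusted p = 1.78e-13). Gata3 rose from 0.435, 0.512 and 0.387, which are 2, 3 and 1 counts, to 7.41, 11 and 9.73 (4.31 ± 0.42, adjusted p = 3.23e-09). Its fold rests on few reads in ESCs, and its level in NPC E14 WT was far under the 61.0 and 62.9 of NPC-WT. Msx2 fell from 10.9, 7.16 and 6.19 to 1.29, 3.35 and 3.69, 2.83-fold lower (-1.50 ± 0.35, adjusted p = 0.000811). Tfap2a fell from 5.43, 2.73 and 4.26 to 1.61, 1.67 and 2.35, 2.19-fold lower (-1.13 ± 0.38, adjusted p = 0.0151), a call lost without ESC E14 WT replicate 1 (adjusted p = 0.136) or NPC E14 WT replicate 2 (adjusted p = 0.0893).

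Gata2 was at 8.04, 4.09 and 5.42 normalized CPM in ESC E14 WT and at 3.87, 7.0 and 8.39 in NPC E14 WT, with overlapping libraries (log2 fold change 0.17 ± 0.30, adjusted p = 0.680). Grhl3 was at 48.0, 40.1 and 34.0 and then at 36.7, 48.3 and 58.4 (0.21 ± 0.17, adjusted p = 0.333). Msx1 was at 1.09, 1.19 and 2.32 and then at 3.22, 1.67 and 2.69 (0.74 ± 0.50, adjusted p = 0.234). Tfap2c was at 74.1, 58.8 and 65.0 and then at 46.1, 51.2 and 57.7, a difference under the cutoff of 0.5 (-0.35 ± 0.10, adjusted p = 0.00618).

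Whether these changes differ from those of the WT rescue was tested in 1 fit of the counts of both tables (26 libraries), a comparison added after the values of each table had been seen. The change from ESCs to NPCs was more positive in the WT rescue for 6 of 9 factors tested, where 35.2% of all genes were past the cutoffs and 17.4% were more positive. The difference was 4.43 ± 0.39 on the log2 scale for Msx2 (adjusted p = 4.38e-10), 4.01 ± 0.35 for Gata2 (adjusted p = 4.98e-10), 3.15 ± 0.40 for Tfap2a (adjusted p = 4.64e-07), 2.34 ± 0.64 for Msx1 (adjusted p = 0.00476), 1.44 ± 0.25 for Grhl3 (adjusted p = 4.69e-05) and 1.22 ± 0.14 for Tfap2c (adjusted p = 7.89e-08). The call of Msx1 was lost without ESC-WT replicate 2 (adjusted p = 0.0699). Grhl2 (-0.59 ± 0.34, adjusted p = 0.177), Gata3 (0.04 ± 31.3, adjusted p = 0.9998) and Trp63 (2.18 ± 2.52, adjusted p = 0.526) did not pass. The SE is derived from F and is not a usable measure of precision for a change as near 0 as that of Gata3. The degron and transgene, the 24 h treatment and the experiment itself differ together between these groups and cannot be told apart. The study describes the treatment of rescue NPCs as following differentiation, so that time in culture may differ too.

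**Figure D3:**
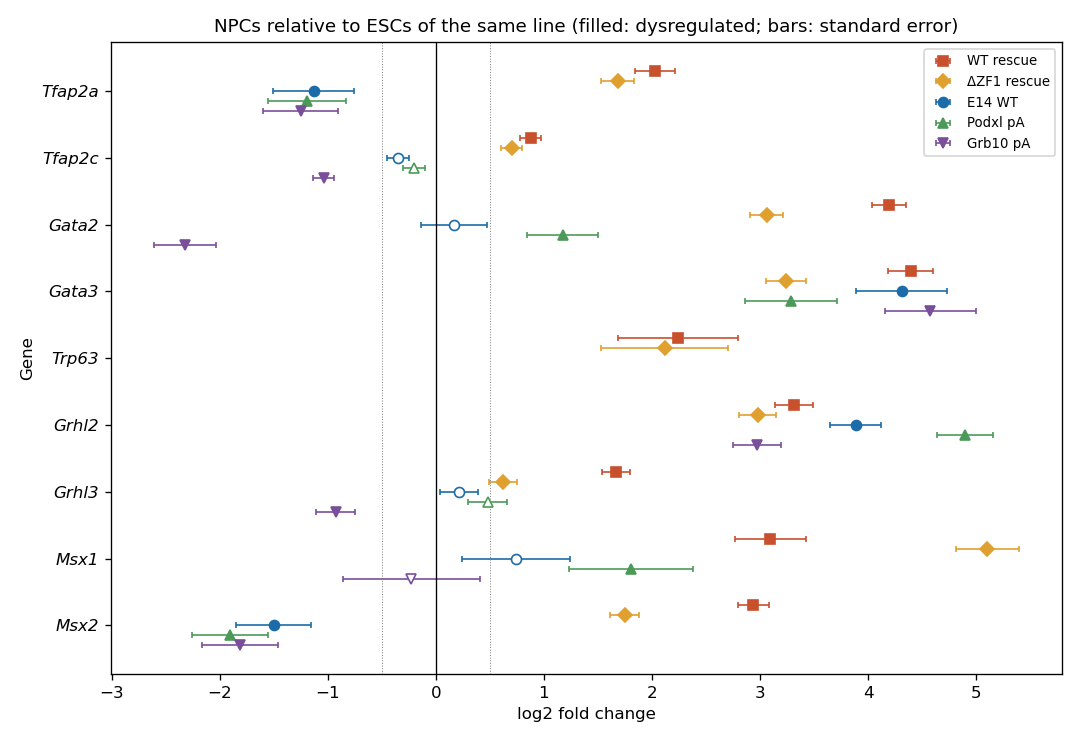
Log2 fold change of NPCs relative to ESCs of the same line (horizontal axis) for the 9 factors tested in at least 1 table, in the 2 rescue lines, E14 WT and the 2 truncation lines, with standard errors as bars and filled symbols for dysregulated genes. Grhl2 and Gata3 are higher in NPCs of all 5 lines (2.97 to 4.90 and 3.24 to 4.58), whereas Msx2 and Tfap2a are above 0 in the rescue lines and below 0 in the other 3.

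In NPC Podxl pA relative to ESC Podxl pA, 6 of the 8 factors were dysregulated, 4 higher and 2 lower, where 31.8% of all genes were dysregulated. Gata2, Gata3, Grhl2 and Msx1 were higher, and Msx2 and Tfap2a lower. Gata2 was at 3.23, 2.49 and 4.11 normalized CPM in ESC Podxl pA and at 7.17, 4.69 and 8.63 in NPC Podxl pA (log2 fold change 1.17 ± 0.33, adjusted p = 0.00503), a call lost without ESC Podxl pA replicate 2 (adjusted p = 0.0612) or NPC Podxl pA replicate 3 (adjusted p = 0.0505). Msx1 was at 0.461, 0.778 and 0.513 and then at 1.02, 2.06 and 3.32 (1.81 ± 0.58, adjusted p = 0.0117), a call lost without ESC Podxl pA replicate 1 (adjusted p = 0.0540) or NPC Podxl pA replicate 3 (adjusted p = 0.117).

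In NPC Grb10 pA relative to ESC Grb10 pA, 7 of the 8 factors were dysregulated, 2 higher and 5 lower, where 34.6% of all genes were dysregulated. Gata3 and Grhl2 were again the higher ones, and Gata2, Grhl3, Msx2, Tfap2a and Tfap2c were lower. Gata2 fell from 14.4, 14.4 and 13.5 normalized CPM to 2.02, 2.73 and 3.92, 5.00-fold lower (log2 fold change -2.32 ± 0.29, adjusted p = 1.46e-07). Grhl3 fell from 45.7, 42.7 and 48.1 to 16.6, 27.3 and 30.1, 1.90-fold lower (-0.93 ± 0.18, adjusted p = 0.000104). Tfap2a fell from 4.74, 3.10 and 4.72 to 1.12, 2.48 and 2.21 (-1.25 ± 0.35, adjusted p = 0.00398), a call lost without NPC Grb10 pA replicate 1 (adjusted p = 0.0629).

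In Podxl pA relative to E14 WT, none of the factors was past the cutoffs. The count was 0 of 8 in ESC Podxl pA relative to ESC E14 WT (0.339% of all genes dysregulated), with 2 factors at an unadjusted p under 0.05. It was 0 of 8 in NPC Podxl pA relative to NPC E14 WT (0.55% of all genes), with 1 factor at an unadjusted p under 0.05. The test of the difference between both effects also gave 0 of 8 (0.098% of all genes), with 2 factors at an unadjusted p under 0.05, and DESeq2 found 0 in each of the 3 comparisons. Gata2 was at 7.17, 4.69 and 8.63 normalized CPM in NPC Podxl pA and 3.87, 7.0 and 8.39 in NPC E14 WT (log2 fold change 0.07 ± 0.29, adjusted p = 0.962).

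Between Grb10 pA and E14 WT, Gata2 differed in opposite directions in the 2 cell types. In ESC Grb10 pA relative to ESC E14 WT, 2 of the 8 factors were dysregulated, both higher, where 9.09% of all genes were dysregulated and 4.51% were higher. Gata2 rose from 8.04, 4.09 and 5.42 normalized CPM to 14.4, 14.4 and 13.5, which is 2.43-fold (log2 fold change 1.28 ± 0.27, adjusted p = 0.00151). Tfap2c rose from 74.1, 58.8 and 65.0 to 103, 118 and 114, or 1.69-fold (0.76 ± 0.10, adjusted p = 3.49e-06). No library of ESC Grb10 pA overlapped the ESC E14 WT libraries in either gene, but how many of all genes were likewise apart was not counted.

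In NPC Grb10 pA relative to NPC E14 WT, 3 of the 8 factors were dysregulated, all lower, where 16.5% of all genes were dysregulated and 8.64% were lower. Markers of several cell types also differed between these groups, as given below. Grhl3 fell from 36.7, 48.3 and 58.4 normalized CPM to 16.6, 27.3 and 30.1, 1.99-fold lower (log2 fold change -0.99 ± 0.18, adjusted p = 0.000143). Gata2 fell from 3.87, 7.0 and 8.39 to 2.02, 2.73 and 3.92, with 1 library of each group in the range of the other (-1.21 ± 0.32, adjusted p = 0.00590), and its call was lost without NPC Grb10 pA replicate 1 (adjusted p = 0.0624) or NPC E14 WT replicate 2 (adjusted p = 0.0503). Msx1 was at 3.22, 1.67 and 2.69 and then at 1.12, 0.993 and 0.170 (-1.54 ± 0.51, adjusted p = 0.0263). Msx1 rests on 1 to 11 counts per library here, and its call was lost without NPC Grb10 pA replicate 3 (adjusted p = 0.123), NPC E14 WT replicate 1 (adjusted p = 0.101) or NPC E14 WT replicate 3 (adjusted p = 0.0680).

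The difference between the Grb10 pA effects in NPCs and ESCs was past the cutoffs for 3 of the 8 factors, all more negative in NPCs, where 5.9% of all genes were past them and 3.04% were more negative. It was -2.49 ± 0.42 on the log2 scale for Gata2 (adjusted p = 0.000522), -1.14 ± 0.25 for Grhl3 (adjusted p = 0.00599) and -0.69 ± 0.14 for Tfap2c (adjusted p = 0.00338). Each of these 3 calls was kept with any one of the 12 libraries left out. Gata2 and Grhl3 are thus the factors with a more negative effect in NPCs for both ΔZF1 and Grb10 pA, in separate lines with separate controls. The ΔZF1 calls did not outlast the loss of single libraries, and how many of all genes passed in both was not counted. For Gata2 the effects in ESCs differ, with a log2 fold change of 1.28 in ESC Grb10 pA and -0.07 in ESC-ΔZF1, each relative to its WT.

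Gene lists of the tissues of these factors were then compared. Of the surface ectoderm and epithelial genes, 21 of 22 tested were dysregulated in NPC-WT relative to ESC-WT, 20 higher and 1 lower. Of all genes, 41.9% were dysregulated and 22% were higher. The median log2 fold change of the list was 2.47. Krt18, a keratin of simple epithelia, rose from a mean of 69.1 to 2123 normalized CPM (log2 fold change 4.96 ± 0.38, adjusted p = 5.05e-06), and Krt19 rose from 6.42 to 190 (4.98 ± 0.30, adjusted p = 1.33e-06). In NPC-ΔZF1 relative to NPC-WT, 14 of 22 were dysregulated (17.6% of all genes), 1 higher and 13 lower, with a median of -0.92. Krt19 fell from 190 to 52.2 (-1.86 ± 0.23, adjusted p = 0.000824), Krt8 from 1175 to 343 (-1.77 ± 0.25, adjusted p = 0.00149) and Krt18 from 2123 to 709 (-1.58 ± 0.32, adjusted p = 0.00792). The 2 NPC-WT libraries differed in these keratins, at 145 and 236 for Krt19, 965 and 1384 for Krt8 and 1671 and 2576 for Krt18. Klf5 was the 1 gene that rose, from 129 to 244 (0.92 ± 0.12, adjusted p = 0.00111). Of the keratins of stratified epithelia, Krt5 did not pass the filter and Krt14 had a mean of 1.19 in NPC-WT. In NPC E14 WT relative to ESC E14 WT, 11 of the 17 genes tested were dysregulated (32.8% of all genes), 10 higher and 1 lower. Krt18 reached a mean of 49.0 there, from 14.5 in ESCs. In ESC-ΔZF1 relative to ESC-WT, 2 of the 22 were dysregulated (3.61% of all genes), 1 higher and 1 lower. The higher one was the tight junction gene Cldn4 (0.80 ± 0.19, adjusted p = 0.0448).

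The neural plate border, neural crest and preplacodal genes moved differently. In NPC-ΔZF1 relative to NPC-WT, 7 of 22 were dysregulated (17.6% of all genes), 6 higher and 1 lower, with a median of 0.35. Zic1, a neural plate and border factor, rose from a mean of 1.07 to 3.01 normalized CPM (log2 fold change 1.53 ± 0.37, adjusted p = 0.0178) and Gbx2 from 3.09 to 7.65 (1.36 ± 0.22, adjusted p = 0.00245). Eya2, a preplacodal factor, fell from 5.26 to 1.71 (-1.62 ± 0.35, adjusted p = 0.010). In NPC-WT relative to ESC-WT, 18 of 22 were dysregulated, 11 higher and 7 lower, where 41.9% of all genes were dysregulated and 22% were higher. Without NPC-ΔZF1 replicate 1 or replicate 2, 4 and 3 of the 22 were dysregulated in NPC-ΔZF1, all higher, where 5.33% and 5.5% of all genes were. Without NPC-WT replicate 1 there were 11, 7 higher and 4 lower, where 33.3% of all genes were dysregulated. Of the surface ectoderm genes, 10 of 22 were dysregulated without either of the NPC-ΔZF1 libraries, 1 higher and 9 lower.

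Of the BMP pathway genes, 12 of 24 tested were dysregulated in NPC-WT relative to ESC-WT, 10 higher and 2 lower. Of all genes, 41.9% were dysregulated and 22% were higher. The ligand Bmp2 was at a mean of 0.250 and then 7.58 normalized CPM (log2 fold change 5.00 ± 0.41, adjusted p = 8.51e-06). In NPC-ΔZF1 relative to NPC-WT, 4 of 24 were dysregulated, 1 higher and 3 lower, with a median of -0.11, a share near the 17.6% of all genes. Bmper, an extracellular modulator of BMP, rose from 0.254 to 1.94 (2.66 ± 0.58, adjusted p = 0.0110). The receptor Bmpr1b fell from 3.27 to 0.776 (-2.12 ± 0.38, adjusted p = 0.00457), the signal transducer Smad9 from 1.92 to 0.682 (-1.50 ± 0.39, adjusted p = 0.0236) and the ligand Bmp7 from 13.7 to 8.58 (-0.66 ± 0.20, adjusted p = 0.0422). The BMP targets Id1 (0.41), Id2 (0.73) and Id3 (-0.55) were not dysregulated in this comparison. In ESC-ΔZF1 relative to ESC-WT, 1 of the 24 was dysregulated, near the 3.61% of all genes: Bmpr1b, from 2.04 to 0.312 (-2.73 ± 0.55, adjusted p = 0.0288).

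Of 14 cofactors of these factors, 5 were dysregulated in NPC-ΔZF1 relative to NPC-WT (17.6% of all genes), 3 higher and 2 lower, with a median log2 fold change of 0.06. The AP-2 coactivator Cited4 fell from a mean of 6.27 to 2.96 normalized CPM (-1.06 ± 0.24, adjusted p = 0.0127) and the AP-2 inhibitor Kctd15 from 59.5 to 38.8 (-0.61 ± 0.14, adjusted p = 0.0117). Cited1 rose from 37.6 to 60.8 (0.70 ± 0.20, adjusted p = 0.0322) and Tead4, a partner of Yap1, from 32.8 to 50.9 (0.63 ± 0.11, adjusted p = 0.00445), and the fifth was Lmo4. In ESC-ΔZF1 relative to ESC-WT, 1 of the 14 was dysregulated (3.61% of all genes), the coactivator Cited2, from 23.3 to 51.0 (1.15 ± 0.14, adjusted p = 0.00685).

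Of the other members of the same gene families, 3 of 6 tested were dysregulated in NPC-ΔZF1 relative to NPC-WT (17.6% of all genes), all higher. Gata6 rose from a mean of 9.19 to 78.8 normalized CPM (log2 fold change 3.12 ± 0.20, adjusted p = 2.33e-05), Gata4 from 14.3 to 77.4 (2.45 ± 0.22, adjusted p = 0.000146) and Trp73 from 4.07 to 8.83 (1.16 ± 0.25, adjusted p = 0.0103). Gata2 and Gata3 thus fell where Gata4 and Gata6 rose, and Trp63 was not dysregulated where Trp73 rose.

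**Figure D4:**
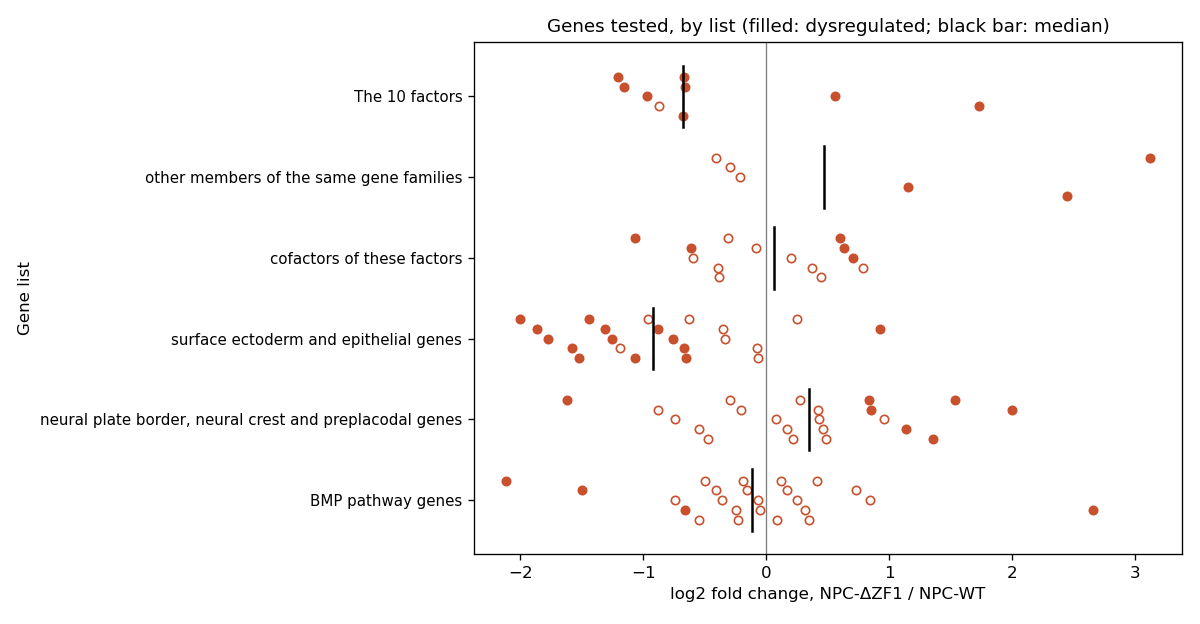
Log2 fold change in NPC-ΔZF1 relative to NPC-WT (horizontal axis) of each gene tested, by list, with filled symbols for dysregulated genes and a black bar at the median. The medians are -0.68 for the 10 factors (9 tested), 0.47 for other members of their families, 0.06 for cofactors, -0.92 for surface ectoderm and epithelial genes, 0.35 for neural border genes and -0.11 for BMP pathway genes.

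Markers of other cell types moved with these results. In NPC-WT relative to ESC-WT, 5 of 5 trophoblast markers tested were dysregulated, 4 higher and 1 lower, with a median log2 change of 4.12. Their summed level in ESC-WT was 17.7 to 20.8 normalized CPM. In the same comparison, 6 of 8 extraembryonic endoderm, 3 of 4 epidermis and 2 of 3 amnion markers tested were higher. Of 5 germ cell markers 1 was higher and 3 were lower, and 2 mesoderm and 3 neuron markers were lower. Of all genes, 41.9% were dysregulated and 22% higher. All 8 extraembryonic endoderm markers, of which Gata4 and Gata6 also stand in the family list, rose in NPC-ΔZF1 relative to NPC-WT. In this comparison 17.6% of all genes were dysregulated. The summed level of these markers was 104 to 118 normalized CPM in NPC-WT and 771 to 818 in NPC-ΔZF1. It was 264 to 305 in NPC E14 WT. Of the trophoblast markers, 3 of 5 tested were dysregulated in NPC-ΔZF1 relative to NPC-WT, 1 higher and 2 lower, and their summed level was 110 to 144 in NPC-WT, 88.6 to 90.4 in NPC-ΔZF1 and 49.3 to 62.4 in NPC E14 WT. The trophoblast marker Prl3d1 was at 0 in each of these groups, whereas Hand1 had a mean of 40.7 and Ascl2 of 45.8 in NPC-WT. Amnion and late surface ectoderm markers, of which Wnt6 and Krt7 also stand in the epithelial list, summed to 137 to 209 in NPC-WT, 67.4 to 67.5 in NPC-ΔZF1 and 3.22 to 5.71 in NPC E14 WT. Epidermis markers summed to at most 6.69 in these groups. Of the NPC markers, 2 of 4 tested were dysregulated in NPC-ΔZF1 relative to NPC-WT: Sox1 rose from a mean of 19.4 to 39.7 (log2 fold change 1.05 ± 0.16, adjusted p = 0.00192) and Nes, a filament protein of progenitors, fell from 98.1 to 54.4 (-0.85 ± 0.17, adjusted p = 0.00794). The summed level of the list was 104 to 142 in NPC-WT, 103 in both NPC-ΔZF1 libraries and 116 to 133 in NPC E14 WT. Of the other marker lists, 1 rose and 1 fell among 5 germ cell markers, 5 mesoderm markers and 3 neuron markers tested, 1 of 4 epidermis markers fell and 2 of 3 amnion markers fell. NPC Grb10 pA also differed from NPC E14 WT in markers, where 16.5% of all genes were dysregulated. Of 4 NPC markers tested, 3 were lower, and the list summed to 50.1 to 60.6 against 116 to 133. Neuron markers summed to 51.6 to 55.9 against 119 to 131. Sums were higher for pluripotency (770 to 829 against 629 to 720) and trophoblast markers (76.0 to 90.1 against 49.3 to 62.4). The mesoderm sum was 62.6 to 76.0 against 33.8 to 37.9. Sums of the other marker lists overlapped. The part of these cell types in the levels of the factors was not tested.

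The genes most alike each factor were named by the lower of 2 Pearson correlations of log2 CPM, over the 8 rescue and the 18 E14 and truncation libraries, among 13226 genes that passed both filters. Libraries of a group share their cells and treatment, so that these values mostly restate differences between groups. For Gata3 they were Tpm1 (0.985), Pou3f1 (0.980) and Pcdh1 (0.977), and for Grhl2 they were Dapk1 (0.982), Adgrl2 (0.978) and Aff3 (0.974). For Tfap2c they were Sipa1l1 (0.906), Oaf (0.901) and Depdc5 (0.896), for Msx2 Csrp1 (0.884), Chrnb1 (0.878) and Ror2 (0.867), and for Tfap2a Slc6a6 (0.873), Ncoa6 (0.869) and Map4 (0.869). For Gata2 they were Atp2b2 (0.819), Magi1 (0.813) and Dsp (0.798), a desmosome gene of epithelia. Gata2 was itself the gene most alike Grhl3 (0.785), ahead of Nhsl1 (0.748) and Zmiz1 (0.745), and for Msx1, which has few counts in the truncation lines, they were Senp5 (0.800), Ppm1h (0.793) and Sfxn5 (0.753).

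Reads were counted without regard to strand, and 3 of the factors share exon bases with other genes. Tfap2a shares 7.75% of its exon bases with the antisense gene Gm26688, 5.4% with Gm47061 and 1.49% with Gm47067. Gata3 shares 3.9% with Gm13256 on the other strand and 1.94% with 9230102O04Rik on its own strand, and Grhl2 shares 1.96% with the antisense Gm16136. Reads on these bases cannot be assigned to 1 gene.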

How the data were processed

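rRNA-depleted total RNA of mouse ESCs and NPCs was sequenced after random priming. The authors aligned reads to mm10 with STAR, assigned them to genes with featureCounts without strand, and deposited raw counts per gene for 8 rescue and 18 E14 and truncation libraries (floors of 3 counts: 0.104 to 0.467 and 0.339 to 1.57 CPM, counting error only). Groups came from the sample labels, and 3 columns of a line without labels here were not used. The 10 factors, the gene lists and the tests were chosen with earlier results of these data known. Each table was fitted once with a mean per group in edgeR 4.0.16 (R 4.3.3): filterByExpr, TMM, quasi-likelihood F test, Benjamini-Hochberg adjustment over all genes tested (16641 and 13268, holding 9 and 8 factors). The SE is the log2 fold change divided by the root of F. Scripts were tested on simulated data. Every factor is named in every group. From each list the 4 dysregulated genes with the largest change in NPC-ΔZF1 relative to NPC-WT are named, except genes not reported here, and the 3 genes most alike each factor. List genes named beyond this were chosen after their values were seen. Alternatives were DESeq2 1.42.0, RLE normalization, other filters and cutoffs, the replicate block, leaving out chromosomes and leaving out each library. Replicate numbers did not pair the samples: deviations of same-numbered libraries correlated between -0.137 and 0.132 in the rescue lines and between -0.209 and 0.154 in the others. Promoter windows are from RefSeq (GRCm38.p6), gene positions from GENCODE M21.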

Additional observations from a re-analysis of the deposited data

Results flagged for a closer look

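These differences between groups passed a test of the difference itself. The ΔZF1 effect was more negative in NPCs than in ESCs for Gata2 (-1.13 on the log2 scale), Grhl3 (-1.04) and Msx2 (-1.19). The Grb10 pA effect was more negative in NPCs than in ESCs for Gata2 (-2.49), Grhl3 (-1.14) and Tfap2c (-0.69). The change from ESCs to NPCs was more positive in the WT rescue than in E14 WT for Msx2 (4.43), Gata2 (4.01), Tfap2a (3.15), Msx1 (2.34), Grhl3 (1.44) and Tfap2c (1.22), in a comparison chosen after the values were seen, between lines that differ in genotype, treatment and experiment, which cannot be told apart.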

How the results depend on the processing

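Of the values of called factors under alternatives, 745 kept their direction and their side of the cutoffs, 61 kept only the direction and 0 reversed. The ΔZF1 effect in NPCs relative to ESCs was past the cutoffs for 3 factors, for 5 with DESeq2, 5 without a filter, 0 at an adjusted p of 0.01 and 0 to 5 when single libraries were left out. In ESC-ΔZF1 the 1 call was lost (0 factors) with the replicate block (Tfap2a, adjusted p = 0.061), at 0.01 and when any single library was left out, and Tfap2a also missed it without chromosome 11 (adjusted p = 0.0571), and the block changed no other call of a factor. In NPC-ΔZF1 relative to NPC-WT, 5 to 8 factors were called with single libraries left out. Requiring 10 counts in every library left 2 factors tested in the E14 and truncation table, with 0 called in NPC E14 WT over ESC E14 WT, 1 in Podxl pA and 2 in Grb10 pA NPCs over ESCs, 1 each in ESC and NPC Grb10 pA over E14 WT, and 2 in the comparison of both tables. Where 1 library is left in a group, it is assumed to vary like the others. Over all genes, 601 were dysregulated in ESC-ΔZF1, 1088 without a filter, 249 without chromosome 11, 52 at 0.01, 1601 in a fit of the ESC libraries alone and 8 to 21 with a library left out. In NPC-ΔZF1 relative to NPC-WT there were 2936, against 1455 at 0.01, 1222 in a fit of the NPC libraries alone, 5870 without NPC-WT replicate 1 and 943 to 968 without an NPC-ΔZF1 library. For the difference of both there were 449, against 712 with DESeq2, 1139 without a filter, 74 at 0.01, 4673 and 1666 without NPC-WT replicate 1 and 2, and 54 to 87 without another library. For Podxl pA there were 45 in ESCs (12 to 94 under alternatives that moved it by over 1.5 times), 73 in NPCs (40 to 133) and 13 for their difference (6 to 108). For Grb10 pA there were 1206 in ESCs (784 at 0.01) and 783 for the difference (314 at 0.01, 506 without NPC E14 WT replicate 2). Requiring 10 counts lowered NPCs over ESCs from 4351 to 2683 in E14 WT, from 4224 to 2533 in Podxl pA and from 4590 to 2860 in Grb10 pA, where fewer genes were tested. Other causes were not tested. Trp63, Tfap2b and, in the truncation lines, Msx1 and ESC Gata3 are limited by depth.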
